A study of Bos taurus with 13 samples.

Results

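The interferon regulatory factors (IRFs) are a family of transcription factors, and the genes studied here are the rows named *IRF1*, *IRF2*, *IRF3*, *IRF4*, *IRF5*, *IRF7*, *IRF8* and *IRF9* in gene counts from the whole blood of dairy cows. These are 8 of 16095 named genes, found by their gene names, and all 8 passed the filter on low counts. Blood was taken from the tail vein into PAXgene tubes, which preserve RNA at sampling, and RNA libraries were read on an Illumina sequencer with the globin RNA left in. The animals were lactating, clinically healthy cows of 1 farm and 1 breed, named Italian Red Pied in the labels and Italian Simmental in the methods, and their ages were not given in the sources used here. The labels give no treatment, and the groups are the tails of a ranking by the cortisol concentration of the milk. The high group had 7 cows (replicates 1 to 7) and the low group 6 (replicates 8 to 13), so the comparison is between cows that differed in milk cortisol and not between treatments.

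IRF proteins share a DNA-binding domain that recognises interferon-stimulated response elements. IRF3 and IRF7 are activated by phosphorylation through TBK1 and IKBKE downstream of nucleic acid sensors and switch on the type I interferon genes. Interferon then acts through its receptor, JAK1 and TYK2 on STAT proteins, among them STAT2, which join IRF9 to form the complex ISGF3, and IRF7 is itself among the genes that this complex induces. IRF1 is an activator induced strongly by interferon gamma, and IRF2 binds the same elements and can oppose it. IRF5 acts downstream of Toll-like receptors and MyD88. IRF4 is best known from plasma cells and activated lymphocytes, and IRF8 from monocytes, dendritic cells and B cells.

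On the UMD3.1 build and the Ensembl release 88 gene models named in the file headers, the rows lie at the following positions, each the span of all exons of 1 gene name. *IRF1* is at chr7:23235653-23243697 on the plus strand with 10 exon blocks, *IRF2* at chr27:13909933-13950319 on the minus strand with 8, and *IRF3* at chr18:56517723-56523302 on the minus strand with 8. *IRF4* is at chr23:52050985-52064928 on the minus strand with 9, and *IRF5* at chr4:93706154-93717881 on the plus strand with 11. *IRF7* is at chr29:50903719-50906820 on the plus strand with 9, *IRF8* at chr18:11883376-11905043 on the plus strand with 9, and *IRF9* at chr10:20820964-20825886 on the minus strand with 9. No exon base of a member was shared with another named row, a count of 0. The closest exons of another gene were those of *BCL2L12*, 137 bases from *IRF3*, and of *PHRF1*, 562 bases from *IRF7*, both on the opposite strand. The header of the counts gives no strand option, so reads that ran past the annotated end of such a neighbour could not be told from reads of the member.

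Counts on named genes summed to 11045599 to 28124575 per cow (median 17381198). Neutrophil markers summed to between 4183 and 9092 CPM (counts scaled by library size, TMM factors included), T cell markers to between 2423 and 3966, B cell markers to between 1532 and 3035 and monocyte markers to between 678 and 1345 over both groups, so the tissue carried the marker RNAs of blood leukocytes. The erythroid markers, summing to 378 to 7841 CPM in the high group and 141 to 573 in the low group, were the list that differed most between the groups. Their score, the mean of log2 CPM over a list after centring each gene, was 0.93 log2 units higher in the high group (exact two-sided permutation test, p = 0.0175, adjusted p = 0.210 over the 12 lists scored). The first principal component of log2 CPM over 10889 genes outside the lists and the family held 29.1% of the variance, and high replicate 4 stood at -62.1 on it, with the other 12 cows between -18.9 and 31.3. The log2 fold changes of the members that follow this component are given with and without that cow. So is their r with each other and with the interferon-induced score, while their r with single genes includes that cow.

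Per exon length the family was led by *IRF1*, and the levels here are in RPKM, the CPM divided by the exon length in kilobases. *IRF1* had a mean of 329.9 ± 117 RPKM (SD, n = 13), *IRF9* 232 ± 81.7, *IRF3* 203 ± 47.0, *IRF5* 144 ± 20.02, *IRF2* 104 ± 14.9, *IRF7* 88.4 ± 60.4, *IRF8* 64.5 ± 9.07 and *IRF4* 16.8 ± 4.96. *IRF1* made up 19.9% to 39.3% of the summed RPKM of the 8 genes in a cow. *IRF4* was the lowest of the 8 in all 13 cows, with 0.588% to 2.46%.

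Neighbours in the order of mean log2 RPKM were compared within cows by an exact sign-flip test, two-sided and adjusted over the 7 neighbouring pairs. *IRF1* lay 0.52 log2 units above *IRF9* (SD 0.41, higher in 11 of 13 cows, adjusted p = 0.00256). *IRF3* lay 0.46 above *IRF5* (SD 0.33, 12 of 13 cows, adjusted p = 0.00228), and *IRF5* lay 0.47 above *IRF2* in all 13 cows (SD 0.13, adjusted p = 8.5e-04 by the exact test). *IRF8* lay 1.99 above *IRF4* in all 13 cows, which is 3.97-fold (SD 0.52, adjusted p = 8.5e-04, exact test). The other 3 neighbours were not separated beyond their spread. *IRF9* exceeded *IRF3* by 0.15 (SD 0.24, 11 of 13 cows, adjusted p = 0.0595), *IRF2* exceeded *IRF7* by 0.48 (SD 0.80, 10 of 13 cows, adjusted p = 0.0595, exact test), and *IRF7* exceeded *IRF8* in the mean by 0.21 although it was the higher in only 6 of 13 cows (SD 0.82, adjusted p = 0.380). By the median over cows *IRF8* stood above *IRF7*. These levels depend on the annotated exon length, which is 1050 bases for *IRF2* and 3040 for *IRF1*, and an exon missing from a gene model would move its gene along this order.

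**Figure D1:**
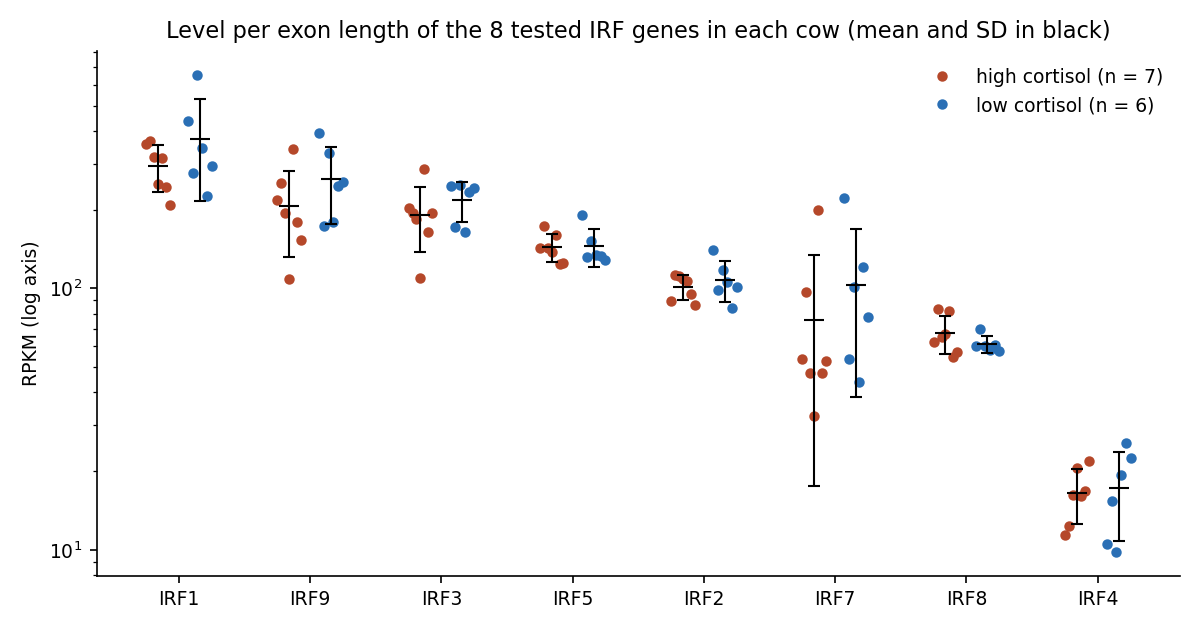
Level of the 8 tested IRF genes in RPKM on a log axis, 1 point per cow, with high cortisol cows (n = 7) and low cortisol cows (n = 6) side by side and black bars for the mean and SD of each group. The genes are ordered by mean log2 RPKM, IRF1 to IRF4, and the groups overlap in every gene.

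The question of the group comparison was whether the family differed between high and low cortisol cows. Of the 8 tested members 0 passed an adjusted p of 0.05 in edgeR's quasi-likelihood fit, against 0% of all 11033 genes tested, a count of 0 genes that limma-voom also gave and that was 1 gene, *CYP4X1*, by DESeq2. At an unadjusted p below 0.05 stood 0 of 8 members, beside 231 of 11033 genes or 2.09%. No member had group ranges that did not overlap, beside 3 of all genes or 0.0272% (*ACTRT3*, *HIST1H2BN* and *SNED1*). Those 3 genes and *CYP4X1* were named after their values were seen. Adjusted p was 0.998 for all 8 members. *IRF8* had a positive log2 fold change and the other 7 a negative one, and for *IRF2*, *IRF4* and *IRF5* the sign turned when single cows were left out or another fit was used. Intervals below are 95% intervals from edgeR, for high minus low. In bulk blood, fewer cells of a type and less RNA per cell cannot be told apart.

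**Figure D2:**
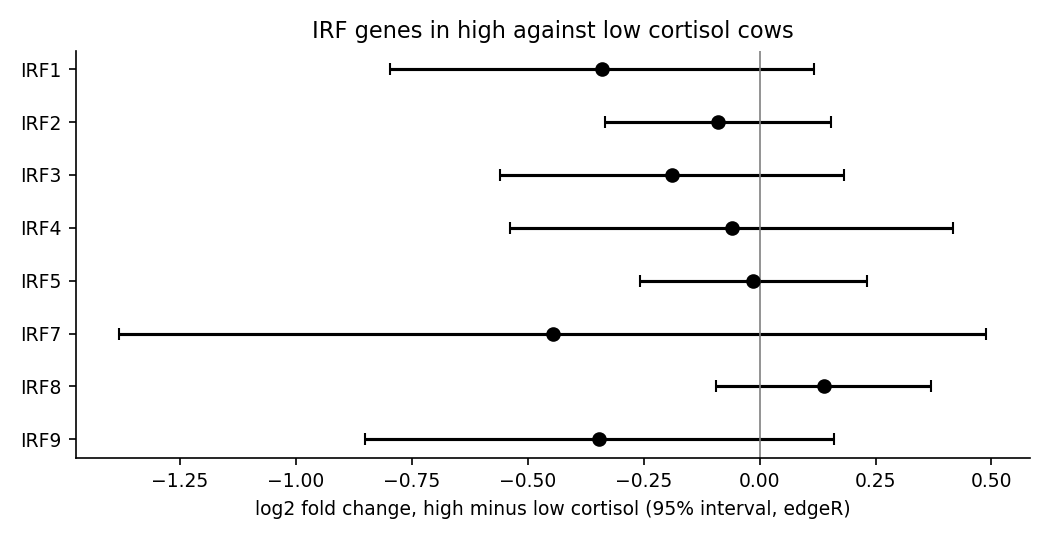
log2 fold change of the 8 tested IRF genes, high minus low cortisol, with 95% intervals from edgeR (n = 7 and 6 cows). All intervals include 0, and that of IRF7, from -1.38 to 0.49, is the widest.

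Of the factors that switch on interferon genes, *IRF7* varied most. In the high group it ran from 62.0 CPM to 381 (median 100.4), and in the low group from 83.5 to 424 (median 171). A single cow of each group, high replicate 5 and low replicate 8, carried the highest levels of all 13. The low group's median was above 5 of 7 high cows. The log2 fold change was -0.45 (SE 0.44, interval -1.38 to 0.49, unadjusted edgeR p = 0.325), and the exact permutation test over all 1716 splits gave p = 0.317. This interval spans 0.384-fold to 1.404-fold. Without high replicate 5 the log2 fold change of *IRF7* was -0.91 and passed the unadjusted threshold in edgeR, though no adjusted one. Without low replicate 8 it was -0.07, and without high replicate 4 it was -0.32.

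*IRF3*, the constitutively made partner of *IRF7*, ran from 170 to 444 CPM in the high group (median 299) and from 255 to 383 in the low group (median 368). High replicate 4 was the lowest and high replicate 5 the highest of all cows, so the low group lay inside the range of the high group. The log2 fold change of *IRF3* was -0.19 (SE 0.17, interval -0.56 to 0.18, unadjusted edgeR p = 0.295; exact permutation p = 0.305), and was -0.09 without high replicate 4 and -0.32 without high replicate 5.

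The log2 difference of *IRF7* counts to *IRF3* counts was taken in each cow, as a measure of the inducible over the constitutive factor that does not depend on library scaling. It was -1.24 ± 0.56 in the high group (SD, n = 7) and -0.96 ± 0.64 in the low group (n = 6), a difference of -0.28 (exact permutation p = 0.423). Over the 13 cows it ran from -1.64 to 0.16. It was above 0 only in low replicate 8, and high replicate 5 followed at -0.22. The group difference was -0.05 without low replicate 8 and -0.45 without high replicate 5. *IRF3* was not a fixed reference here, since across cows it had r = 0.84 with *IRF7*.

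*IRF9*, the DNA-binding part of ISGF3, ran from 236 to 742 CPM in the high group (median 422) and from 378 to 854 in the low group (median 545). As with *IRF7*, low replicate 8 and high replicate 5 were the highest cows and high replicate 4 the lowest. The log2 fold change of *IRF9* was -0.35 (SE 0.24, interval -0.85 to 0.16, unadjusted edgeR p = 0.167; exact permutation p = 0.213). It was -0.51 without high replicate 5, which passed the unadjusted threshold, -0.24 without high replicate 4 and -0.19 without low replicate 8.

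*IRF1* ran from 636 to 1112 CPM in the high group (median 955) and from 685 to 1996 in the low group (median 970.4). Low replicate 10 alone stood above 1324 CPM, and the medians of the groups were close together. The log2 fold change was -0.34 (SE 0.22, interval -0.80 to 0.12, unadjusted edgeR p = 0.136; exact permutation p = 0.296), and without low replicate 12 it was -0.45 and passed the unadjusted threshold. Without low replicate 10, the highest cow, it was -0.10.

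*IRF2* moved within a narrower range, from 90.8 to 118 CPM in the high group (median 112) and from 88.4 to 147 in the low group (median 109). Its log2 fold change was -0.09 (SE 0.11, interval -0.33 to 0.15, unadjusted edgeR p = 0.445; exact permutation p = 0.512). The log2 difference of *IRF1* counts to *IRF2* counts was 3.05 ± 0.27 in the high group (SD, n = 7) and 3.24 ± 0.39 in the low group (n = 6), a difference of -0.19 (exact permutation p = 0.347). Low replicate 10 had the highest difference, 4.01, and high replicate 4 the lowest, 2.74. Without low replicate 10 the group difference was -0.04. The log2 fold change of *IRF2* was 0.0026 without low replicate 8, the highest cow of that gene.

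*IRF5*, the factor downstream of MyD88, had the smallest log2 fold change of the 8. It ran from 319 to 446 CPM in the high group (median 366) and from 330 to 490 in the low group (median 343), with a log2 fold change of -0.01 (SE 0.12, interval -0.26 to 0.23, unadjusted edgeR p = 0.907; exact permutation p = 0.936), and without low replicate 8 it was 0.09.

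Of the factors tied to blood cell lineages, *IRF4* ran from 16.7 to 32.1 CPM in the high group (median 23.7) and from 14.4 to 37.5 in the low group (median 25.5). The low group held both the lowest cow, replicate 10, and the highest, replicate 12. Its log2 fold change was -0.06 (SE 0.23, interval -0.54 to 0.42, unadjusted edgeR p = 0.793; exact permutation p = 0.974). It was 0.09 without low replicate 12 and -0.17 without low replicate 10. *IRF8* ran from 120 to 183 CPM in the high group (median 143) and from 126 to 153 in the low group (median 132). High replicates 2 and 5 stood above all other cows, and the low group was the tighter one. The log2 fold change of *IRF8* was 0.14 (SE 0.11, interval -0.09 to 0.37, unadjusted edgeR p = 0.224; exact permutation p = 0.267), and it was 0.08 without high replicate 2 and 0.09 without high replicate 5.

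The log2 share of haemoglobin counts, which was between 0.0282% and 0.815% of counts in the high group and between 0.0114% and 0.0552% in the low group before the log, was added as a covariate. Again 0 of 8 members stood at an unadjusted p below 0.05 in that fit. With that covariate the log2 fold change was -0.10 for *IRF1*, -0.33 for *IRF4*, -0.20 for *IRF9*, -0.04 for *IRF2* and 0.07 for *IRF5*. Permutation p for Pearson's r of a member with log2 haemoglobin share or log2 depth was at least 0.461 after adjustment over 24 relations. The remaining 8 of these were with the first principal component. For *IRF1* and log2 depth r was 0.37, and 0.79 without the 2 cows farthest from the median of *IRF1*. The next in size without 2 cows was -0.53, for *IRF7* and haemoglobin share.

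The members differed widely in their spread between cows. The coefficient of variation of CPM over 13 cows was 68.3% for *IRF7*, with 6.85-fold between the highest and the lowest cow. It was 35.5% for *IRF1*, 35.2% for *IRF9*, 29.5% for *IRF4* and 23.2% for *IRF3*. *IRF2*, *IRF8* and *IRF5* stood at 14.2%, 14.1% and 13.9%, with at most 1.66-fold between cows. Counting error alone gives a coefficient of variation of 6.64% at the lowest count of any of the 8, that of *IRF4*, and less for the others. The biological coefficient of variation estimated by edgeR within the groups was 0.536 for *IRF7*, at percentile 96.9 of all genes tested, and 0.154 for *IRF8*, at percentile 13.3. *IRF1*, *IRF9*, *IRF4* and *IRF3* lay between percentiles 52.9 and 73.5, and *IRF2* and *IRF5* at percentiles 16.8 and 17.7. By mean level *IRF4* stood at percentile 48.9 of the genes tested and the other members between percentiles 82.6 and 98.9. Their spread was not compared with that of genes of like level.

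**Figure D3:**
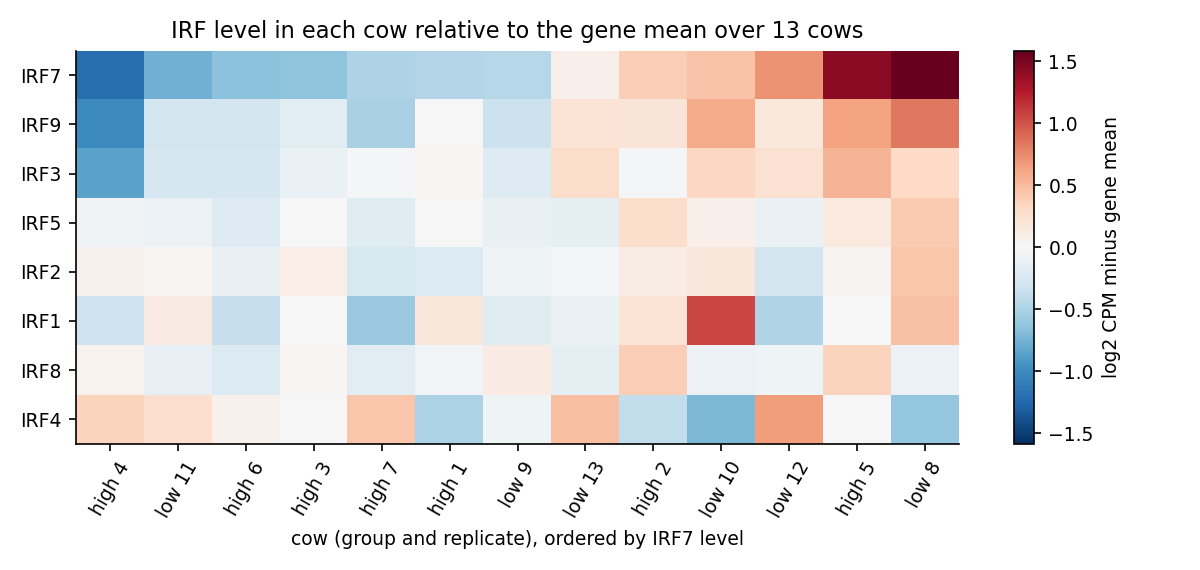
log2 CPM of the 8 tested IRF genes in each of the 13 cows relative to the gene's mean over the cows, with cows ordered by IRF7 level. IRF7 and IRF9 are lowest in high replicate 4 and highest in low replicate 8, IRF4 is lowest and IRF1 highest in low replicate 10, and the rows of IRF2, IRF5 and IRF8 stay pale.

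Co-variation between members was measured by Pearson's r of log2 CPM over the 13 cows, with permutation p from 100000 resamples adjusted over the 28 pairs. Of these, 9 passed an adjusted p of 0.05, and the count was 5 without high replicate 7 and 5 without low replicate 8. No member's values fell into separate clusters, since no gap between neighbouring cows exceeded 0.5 of a gene's range. Values for r without the 2 cows farthest from the median of the first gene named are given beside each pair below.

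A first set of 3 genes, *IRF7*, *IRF9* and *IRF3*, rose and fell together. *IRF7* and *IRF9* had r = 0.91 (Spearman's rho 0.86, permutation p = 1e-05, the smallest that the resamples can give, adjusted p = 2.8e-04), and 0.86 without the farthest 2 cows. *IRF3* and *IRF9* had r = 0.90 (rho 0.86, adjusted p = 9.8e-04 by permutation), and 0.83 without 2. *IRF3* and *IRF7* had r = 0.84 (rho 0.88, permutation adjusted p = 0.00126), and 0.80 without 2. The 3 values were 0.81 or more within the high group and within the low group, as 0.91, 0.91 and 0.86 in high cows and 0.91, 0.88 and 0.81 in low cows.

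These 3 genes also followed the first principal component of the genes outside the family and lists. Its r was 0.94 with *IRF3* (permutation adjusted p = 2.4e-04 over the 24 relations), 0.84 with *IRF9* (adjusted p = 0.00264) and 0.73 with *IRF7* (adjusted p = 0.0240), while r was between -0.21 and 0.35 with the other 5. With the component removed from each gene, a setting added after the data were seen, *IRF7* and *IRF9* kept r = 0.81 (permutation adjusted p = 0.00756) and *IRF3* and *IRF7* 0.67 (adjusted p = 0.0356). *IRF3* and *IRF9* had r = 0.62 (permutation adjusted p = 0.0503), which no longer passed, and rho 0.81 (adjusted p = 0.0161), which did. Without high replicate 4, the cow apart on this component, r was 0.91 for *IRF7* and *IRF9*, 0.85 for *IRF3* and *IRF9* and 0.85 for *IRF3* and *IRF7*.

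A second set of relations joined *IRF1*, *IRF2*, *IRF5* and, in the opposite direction, *IRF4*. *IRF1* and *IRF4* had r = -0.83 (rho -0.82, permutation adjusted p = 0.00126, -0.79 without 2), and r was -0.91 in high cows and -0.87 in low cows. *IRF2* and *IRF5* had r = 0.78 (rho 0.78, permutation adjusted p = 0.00773, 0.63 without 2). *IRF4* and *IRF5* had r = -0.70 (rho -0.69, permutation adjusted p = 0.0292, -0.76 without 2), and *IRF1* and *IRF2* had r = 0.69 (rho 0.76, permutation adjusted p = 0.0336, 0.69 without 2). *IRF1* and *IRF5* had r = 0.63 (rho 0.80, 0.76 without 2). That pair passed on rho (permutation adjusted p = 0.00907) and not on r (adjusted p = 0.0600). Low replicate 10, the cow with the highest *IRF1*, had the lowest *IRF4*, and low replicate 12 had the highest *IRF4* and the second lowest *IRF1*.

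On Pearson's r the sets were not separate, since a pair of relations led from *IRF5* to the first set. *IRF5* and *IRF7* had r = 0.71 (rho 0.52, permutation adjusted p = 0.0292, 0.56 without 2) and *IRF5* and *IRF9* 0.68 (rho 0.63, permutation adjusted p = 0.0338, 0.58 without 2). On rho neither link passed, with permutation adjusted p of 0.152 and 0.0786. Both rested partly on low replicate 8. Without it r was 0.55 for *IRF5* and *IRF7* and 0.54 for *IRF5* and *IRF9*, with a permutation adjusted p of 0.166 for each. Also without it *IRF2* and *IRF5* had r = 0.60 (permutation adjusted p = 0.128) and *IRF4* and *IRF5* -0.62 (adjusted p = 0.122). Without high replicate 7, r was 0.63 for *IRF1* and *IRF2* (permutation adjusted p = 0.102) and -0.67 for *IRF4* and *IRF5* (adjusted p = 0.0693). *IRF1* and *IRF2* also missed the threshold without high replicates 2 or 6 or low replicates 8 or 12, and *IRF5* and *IRF7* without high replicates 6 or 7. *IRF5* and *IRF9* missed it without high replicates 5, 6 or 7 or low replicates 9 or 11. In these fits r was 0.65 to 0.70, with permutation adjusted p of 0.0501 to 0.0843. With the first principal component removed 11 pairs passed on Pearson's r, 8 of the 9 and 3 more. These 3 were *IRF9* with *IRF2* (r = 0.70, permutation adjusted p = 0.0340), with *IRF1* (0.67, adjusted p = 0.0407) and with *IRF4* (-0.66, adjusted p = 0.0356). On ranks none of the 3 passed, with rho of 0.44, 0.48 and -0.48 and permutation adjusted p of 0.252, 0.203 and 0.203. After centring on group means 8 of the 9 passed, and *IRF1* with *IRF2* did not (r = 0.68, permutation adjusted p = 0.0830).

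*IRF8* passed with no other member, on r or on rho. Its largest r was 0.52, with *IRF5* (rho 0.59, permutation adjusted p = 0.126, 0.73 without 2). Within the groups that relation read 0.96 over the 7 high cows and -0.12 over the 6 low cows, and the difference between the groups was not tested. With the first principal component removed, *IRF5* and *IRF8* had r = 0.52 (permutation adjusted p = 0.127). Their rho was then 0.69 and passed (permutation adjusted p = 0.0446).

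**Figure D4:**
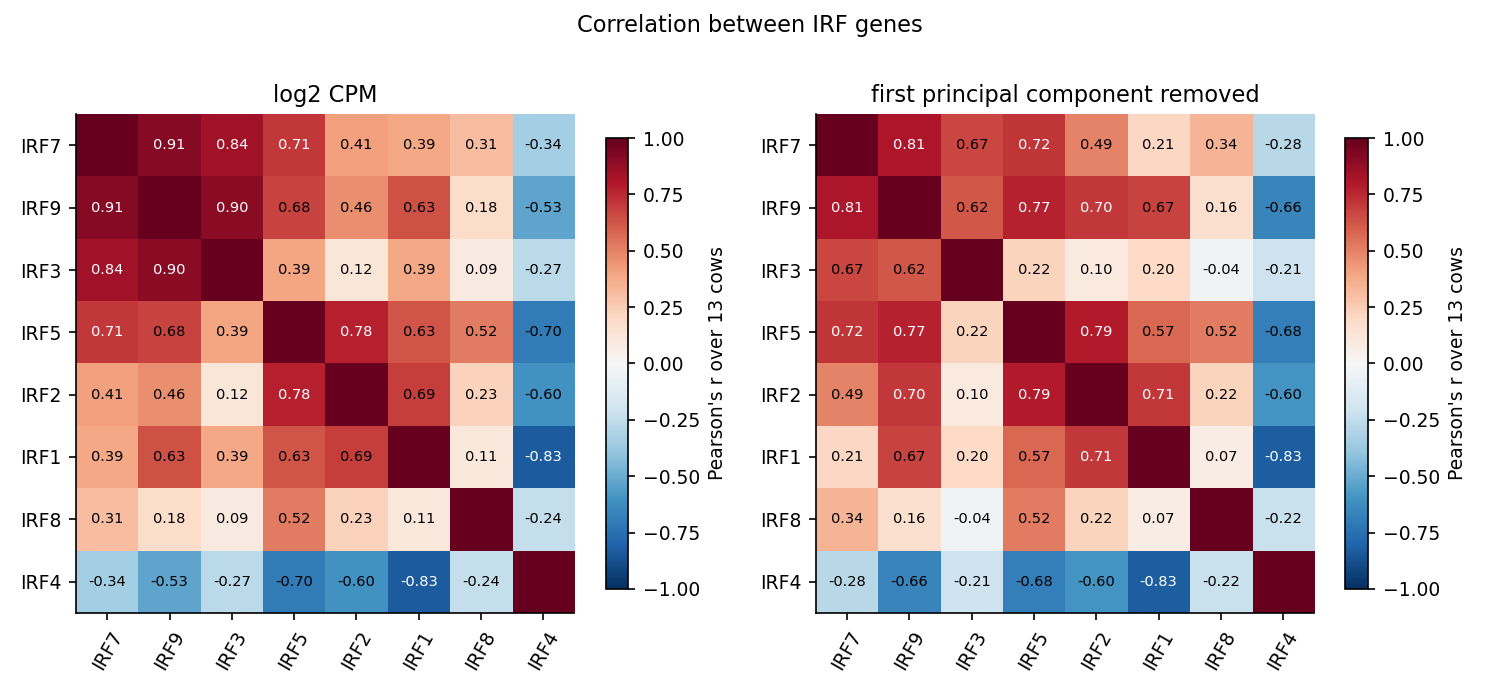
Pearson's r between the 8 tested IRF genes over 13 cows, from log2 CPM on the left and after removing the first principal component on the right. Red stands for positive and blue for negative r. The block of IRF7, IRF9 and IRF3 has r from 0.84 to 0.91 on the left and from 0.62 to 0.81 on the right, and IRF1 and IRF4 stay at -0.83.

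Each member was then set against 12 list scores: interferon-induced genes, glucocorticoid-response genes and the markers of 10 blood cell types. Over these 96 relations, 7 passed an adjusted p of 0.05 by permutation for Pearson's r. The interferon-induced list holds targets of ISGF3 such as *ISG15*, *Mx1*, *RSAD2*, *OAS2* and the *IFIT* genes, 22 of its 26 genes were tested, and no IRF is in it. *IRF7* followed its score with r = 0.94 (rho 0.84, permutation adjusted p = 9.6e-04, 0.86 without the farthest 2 cows), and r was 0.92 in high cows and 0.99 in low cows. *IRF9* had r = 0.87 (rho 0.88, permutation adjusted p = 0.00288, 0.84 without 2) and *IRF3* 0.76 (rho 0.70, permutation adjusted p = 0.0318, 0.75 without 2). On rho the relation of *IRF3* did not pass (permutation adjusted p = 0.102). With the first principal component removed r was 0.92 for *IRF7*, 0.83 for *IRF9* and 0.71 for *IRF3*, with permutation adjusted p of 0.00288, 0.00998 and 0.0574. Without high replicate 4 r was 0.94, 0.89 and 0.81. After centring on group means the relation of *IRF3* had r = 0.73 and did not pass (permutation adjusted p = 0.125).

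Gene by gene, the 22 interferon-induced genes had a median r of 0.89 with *IRF7*, from 0.47 for *IFI44* to 0.98 for *DHX58*. With *IRF7*, 16 of the 22 exceeded r = 0.8, beside 1.31% of all genes tested. With *IRF9* the median was 0.80 and 11 of 22 exceeded it, beside 3.36% of all genes. With *IRF3* the median was 0.65 and 6 of 22 exceeded it, beside 5.94% of all genes, so genes with a pattern like that of *IRF3* were the more common ones in these libraries. The medians for the other members were 0.56 for *IRF5*, 0.41 for *IRF2*, 0.39 for *IRF1*, 0.13 for *IRF8* and -0.24 for *IRF4*. All genes share their libraries and scaling here, so these are descriptions.

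*IRF2* and *IRF5* followed the glucocorticoid-response score, the mean of 10 genes that glucocorticoid receptor is known to induce, among them *FKBP5*, *TSC22D3*, *PER1* and *DUSP1*. Among the 10, *CD163* is also among the monocyte markers. The r was 0.84 for *IRF2* (rho 0.81, permutation adjusted p = 0.0138, 0.74 without 2), with 0.88 in high cows and 0.93 in low cows. It was 0.77 for *IRF5* (rho 0.77, permutation adjusted p = 0.0344, 0.55 without 2), and on rho *IRF5* did not pass (adjusted p = 0.0552). The score itself was 0.08 log2 units higher in the high cortisol group (exact permutation p = 0.549), so the relation ran across cows of both groups. The relation of *IRF5* fell short of the threshold in 6 of the 13 fits that leave out 1 cow (without high replicates 2, 5 and 7 and low replicates 8, 9 and 13), with r of 0.71 to 0.76 and permutation adjusted p of 0.0587 to 0.130, and after centring on group means (r = 0.78, adjusted p = 0.0559). Without removal of the first principal component, only the plasma cell score among the cell type scores passed with either gene, with *IRF2* (r = -0.78, permutation adjusted p = 0.0282). *IRF2* had r = 0.56 with the monocyte score (0.78 in high and 0.70 in low cows, permutation adjusted p = 0.316) and 0.54 with the neutrophil score (adjusted p = 0.373). *IRF5* had r = -0.69 with the T cell score (-0.88 in high and -0.62 in low cows, permutation adjusted p = 0.103). With the plasma cell score *IRF5* had r = -0.68 (rho -0.75, permutation adjusted p = 0.127), and with the monocyte score 0.51 (adjusted p = 0.460). Once the first principal component was removed, *IRF5* passed with the plasma cell score (r = -0.77, permutation adjusted p = 0.0303). Its r with the monocyte score was then 0.72 (permutation adjusted p = 0.0574), and its rho of 0.82 passed (adjusted p = 0.0204). The part of cell types in the relations with the glucocorticoid-response score was not tested.

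*IRF4* followed the plasma cell score with r = 0.78 (rho 0.80, permutation adjusted p = 0.0282, 0.69 without 2), which read 0.46 in high cows and 0.95 in low cows. *IRF2* ran against the same score with r = -0.78 (permutation adjusted p = 0.0282). That score rests on *JCHAIN*, *MZB1* and *DERL3*, the 3 of 7 listed marker names that were tested. Their summed level was 267 to 948 CPM in high cows and 208 to 1157 CPM in low cows. Neither *IRF4* nor *IRF8* passed with the B cell score (r = 0.34 and 0.20), and *IRF8* had r = 0.49 with the monocyte score and 0.10 with the dendritic cell score. The strongest relation of *IRF8* was r = -0.49, with the T cell score (permutation adjusted p = 0.460), and that of *IRF1* was -0.64, with the plasma cell score (adjusted p = 0.162). The count of relations passing was 3 without high replicate 2 and 4 without high replicate 7, low replicate 8, low replicate 9 or low replicate 12. *IRF4* with the plasma cell score missed the threshold when any 1 of these 5 cows was left out, and *IRF2* with that score for 4 of them, low replicate 9 excepted, with r at or beyond 0.71 in size. After centring on group means *IRF4* with that score had r = 0.79 (permutation adjusted p = 0.0575). *IRF3* with the interferon-induced score missed it without high replicates 2 or 5 or low replicates 9 or 12, with r of 0.70 to 0.76. The relations of *IRF7* and *IRF9* with the interferon-induced score and of *IRF2* with the glucocorticoid-response score passed in each of the 13 fits that leave out 1 cow.

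**Figure D5:**
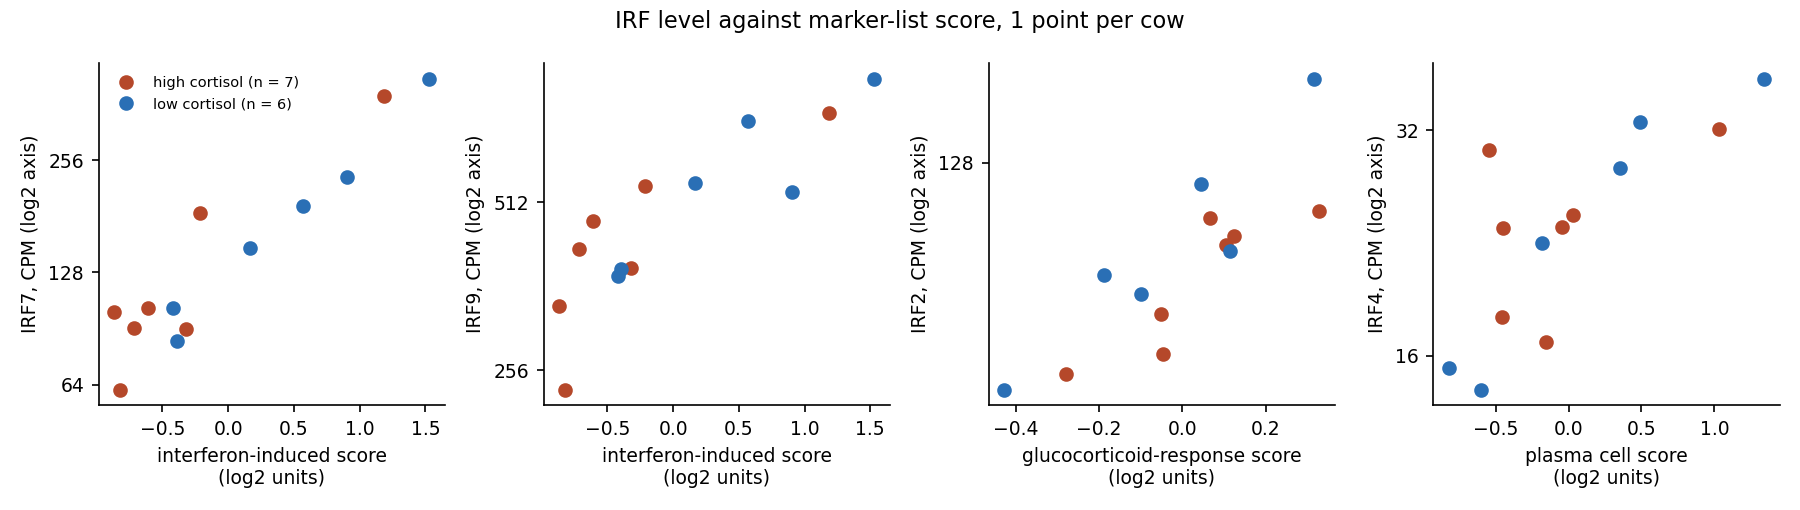
CPM on a log2 axis against list score in log2 units, 1 point per cow, for IRF7 and IRF9 with the interferon-induced score, IRF2 with the glucocorticoid-response score and IRF4 with the plasma cell score. Over the 13 cows r is 0.94, 0.87, 0.84 and 0.78, and in the IRF4 panel it is 0.46 among high and 0.95 among low cortisol cows.

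Among all genes tested, those with a pattern over the 13 cows closest to each member, by Pearson's r and with no test, were the following. For *IRF7* they were *DHX58*, a helicase related to RIG-I (r = 0.98), *PARP10* (0.97) and *ISG15*, a ubiquitin-like modifier (0.96). For *IRF9* they were *RBCK1*, a subunit of the linear ubiquitin ligase (0.99), *GRINA* (0.98) and *DCAF11* (0.97), and *DCAF11* lies 29572 bases from *IRF9* on chromosome 10. For *IRF3* they were *PPP1R7* (0.98), *ARFGAP2* (0.96) and *MAP4K1* (0.96).

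For *IRF1* they were *RNF19B* (0.93), the tryptophanyl-tRNA synthetase *WARS* (0.91) and the peptide transporter subunit *TAP2* (0.88). For *IRF2* they were *TBC1D14* (0.94) and the AP-1 subunits *JUN* (0.92) and *FOSL2* (0.92). For *IRF5* they were *MFN2* (0.91), the kinase *LYN* (0.90) and *CD82* (0.89). For *IRF4* they were the mismatch repair gene *MSH6* (0.92), *FAM46C* (0.87) and *LMAN1*, a cargo receptor of the secretory pathway (0.86). For *IRF8* they were *SUMF1* (0.88), *LRRFIP2* (0.86) and *PDCD6* (0.86).

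The genes around the family were compared between the groups by lists. Of the 22 interferon-induced genes tested all 22 had a negative log2 fold change, with a median of -0.64 beside 0.01 for all genes tested. At an unadjusted edgeR p below 0.05 stood 4 of the 22, beside 231 of all 11033 genes or 2.09% (128 of them lower), and 0 passed adjustment. The 4 were *Mx1* (log2 fold change -1.11, SE 0.43, unadjusted edgeR p = 0.0202; exact permutation p = 0.0763), *OAS1X* (-1.11, SE 0.44, p = 0.0246 and 0.0600), *IFIH1* (-0.51, SE 0.22, p = 0.0374 and 0.103) and *IFI44* (-0.62, SE 0.29, p = 0.0467 and 0.0973). For all 4 the exact test on log2 CPM gave the larger p, above 0.05. *Mx1*, an antiviral GTPase, had a mean of 452 ± 242 CPM in the high group (SD, n = 7) and 973 ± 731 in the low group (n = 6). The score of the list was 0.73 log2 units lower in the high group (exact permutation p = 0.101, adjusted p = 0.478 over the 12 lists scored). These genes move together from cow to cow, so their shared sign is not 22 separate observations.

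Of the 17 genes that activate IRFs, from sensors to *TBK1* and *IKBKE*, 10 had a positive and 7 a negative log2 fold change and 0 stood at an unadjusted edgeR p below 0.05. The 2 with the smallest p were *AZI2*, an adaptor of TBK1 (0.20, SE 0.10, edgeR p = 0.0628; exact permutation p = 0.0507), and *TLR4* (-0.35, SE 0.20, p = 0.0994 and 0.182). Of the 10 genes of the interferon receptors and ISGF3, 4 had a positive and 6 a negative sign, and *STAT2* alone stood below 0.05 (-0.47, SE 0.22, unadjusted edgeR p = 0.0460; exact permutation p = 0.107), with 242 ± 66.5 CPM in the high and 335 ± 116 in the low group. Across cows *STAT2* had r = 0.93 with *IRF9* and 0.82 with *IRF7*, the highest of its list for both members.

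Of the 14 partners and repressors tested 6 had a positive and 8 a negative sign. *PRDM1*, the repressor known as BLIMP1, alone stood below 0.05 (-0.26, SE 0.12, unadjusted edgeR p = 0.0494; exact permutation p = 0.0385). No gene of the 4 lists had an adjusted p under 0.998. The number of their genes at an unadjusted p below 0.05 was 6 in all. It was 22 without high replicate 5, 12 without low replicate 13, 10 without low replicate 9, 3 without high replicate 7, 2 without high replicates 1, 3 or 4 or low replicate 10, and 1 without low replicates 8 or 12. With the haemoglobin share as a covariate it was 1. Over all genes tested the count at that p was 231, and 363 without high replicate 5 and 120 with that covariate. It was 345 without low replicate 9, 241 without low replicate 12 and 197 without low replicates 8 or 13.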

How the data were processed

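Whole-blood RNA of 13 cows was analysed, 7 of the high and 6 of the low milk cortisol group by the sample labels, while 10 cows were selected from each tail, and cows beyond the 13 were not analysed here. The authors deposited counts, whole numbers of reads per gene name without normalization. Per the file headers they were made with featureCounts 1.4.6-p3 on exons of Ensembl release 88 for UMD3.1, with no strand, pair or multi-mapping option and no aligner named. The methods and the submitters' processing notes name STAR 2.7.3, Subread 1.6.5 and ARS-UCD 1.2 instead. The header also names a folder with goat in its name and animal numbers that differ from those of the tables. Which account holds for these counts is not given in the sources used here. The unnamed row, 13.9% to 16.7% of counts, was left out. Replicates were taken as separate cows, and no 2 libraries held the same counts.

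From the counts, TMM-scaled CPM, RPKM by the deposited exon length and log2 CPM (prior count 2) were computed. Groups were compared with edgeR 4.0.16 in R 4.3.3 (robust quasi-likelihood fit, filterByExpr with minimum count 10 and total 15, Benjamini-Hochberg adjustment over all 11033 genes tested). Single members were also compared by exact permutation over 1716 splits, where the smallest possible p is 5.8e-04, and neighbours in level by exact sign flips (8192). Correlations had 100000 permutations in Python 3.11.15 with SciPy 1.17.1 and NumPy 2.4.6. Alternatives were DESeq2 1.42.0, limma-voom (limma 3.58.1), RLE and upper-quartile factors, 2 other filters, a haemoglobin covariate, another prior count (0.5), group centring and leaving out each cow. Removing the first principal component, and scaling, prior and left-out cows for the exact tests, were added after the data were seen. Tests were tried on simulated counts first.

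The members, the gene lists and the tests were chosen with earlier results of these data known. Named are the 8 IRF genes, the 3 genes nearest to each tested member by r, *STAT2*, list genes at an unadjusted p below 0.05 or else the 2 with the smallest p, and score relations passing adjustment or the strongest of a member. Some genes that this rule would name are not reported here.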

Additional observations from a re-analysis of the deposited data

Results flagged for a closer look

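Among 40 comparisons of the highest or lowest cow of a group with the rest of its group, over the 8 tested members and the 2 log2 differences, 2 stood out at the 95% level of Dixon's test, which flags about 1 in 20 groups by chance. *IRF8* in low replicate 9 was 7.26 on the log2 CPM scale, or 153 CPM, while the other 5 low cows lay between 6.98 and 7.06. The log2 difference of *IRF1* to *IRF2* in low replicate 10 was 4.01, while the other 5 low cows lay between 2.95 and 3.24, and this was the cow with 1996 CPM of *IRF1*. Without low replicate 9 and without low replicate 10 in turn, no comparison of these values between the groups passed its threshold, and the group difference of *IRF1* to *IRF2* was -0.04 without low replicate 10 against -0.19 with it.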

How the results depend on the processing

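The number of genes called between the groups was 0 in the main edgeR fit and 1 by DESeq2. The number at an unadjusted p below 0.05 was 231, and 348 by DESeq2, 414 with no filter, 120 with the haemoglobin covariate, and 373 and 363 without high replicates 2 and 5. Members at that unadjusted p numbered 0 to 2 when single cows were left out (*IRF7* and *IRF9* without high replicate 5, *IRF1* without low replicate 12) and 0 under every other alternative tried. Genes of the 4 lists at that p numbered 6, 1 with the haemoglobin covariate and 1 to 22 when single cows were left out. The sign of the log2 fold change turned for *IRF2* without low replicate 8 (0.0026, range over left-out cows -0.15 to 0.0026), for *IRF4* by limma-voom (0.019) and without 4 of the cows (range -0.17 to 0.085), and for *IRF5* with upper-quartile factors (0.0013), with the haemoglobin covariate (0.074) and without 3 of the cows (range -0.061 to 0.085). The signs of *IRF1*, *IRF3*, *IRF7*, *IRF8* and *IRF9* were the same under all 20 alternatives. Pairs of members passing numbered 9, and 5 to 10 when single cows were left out. Member and score relations passing numbered 7, 4 after centring on group means (*IRF3* with the interferon-induced, *IRF4* with the plasma cell and *IRF5* with the glucocorticoid-response score missed the threshold, with r of 0.73 to 0.79) and 3 to 8 when single cows were left out. The cause of these changes was not tested. The pairs *IRF7* with *IRF9*, *IRF3* with *IRF7* and *IRF1* with *IRF4* passed in each of the alternatives that gave a p, and all 9 pairs kept their sign in all 18 alternatives. The exact tests of single members and of both log2 differences stayed above their threshold throughout. Levels on coding length were not run, since no protein table was at hand. No paired analysis was possible because the groups share no replicate numbers. At these depths counting error was small beside the spread between cows for the 8 tested members.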
